A study of Mus musculus with 6 samples.

Results

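The 34 genes described here are transcripts enriched in astrocytes and radial glia, read in cultures that the labels call mouse microglia in vitro. They were chosen by name as an astrocyte and radial glia set, with earlier results of these data known. Matching was through Entrez identifiers, and all 34 were found among the 36528 gene models of the files. Polyadenylated RNA was sequenced in 6 libraries, 2 for each of 3 groups. The first group held Cop1 KO microglia, untreated, whose label also names loxP. The second held wild-type cells exposed to LPS, the lipopolysaccharide of bacterial outer membranes, which macrophages sense. The third held wild-type microglia, untreated. All libraries are labelled brain. The labels name no strain, animal age, Cre driver, culture method, or dose and duration of LPS, and nothing in them says that the 2 libraries of a group came from separate cultures or animals. P-values therefore measure only the spread between these libraries, which may be technical.

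Astrocytes are the glial cells that clear glutamate and potassium from around synapses, regulate water at the vessel wall and are joined by gap junctions. Radial glia are the progenitor cells of the developing brain from which neurons and astrocytes arise, and they carry intermediate filaments and lipid-binding proteins that some astrocytes keep. Microglia, the resident macrophages of the brain, are commonly isolated from mixed glial cultures that also contain astrocytes. In bulk RNA such as this, fewer cells of a type and less RNA per cell cannot be told apart.

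Library totals lay between 20568144 and 22553708 counts, so depth differed little between groups. Of these, the members accounted for 0.201 and 0.198% in the Cop1 KO libraries, 0.455 and 0.445% in the WT LPS libraries, and 0.585 and 0.584% in the WT untreated libraries. Of the 34 genes, 33 passed the filter on low counts, and Gjb6 had 0 counts in every library. Cop1, the ubiquitin ligase gene that the knockout targets, was at 8.06 and 9.23 CPM (counts scaled to TMM-normalised library size) in Cop1 KO, against 12.7 and 11.5 in WT untreated. That difference was a log2 fold change of −0.49 (SE 0.11, edgeR adjusted p = 0.00016, with 5.2e-07 to 0.075 over all settings tried). Counts over the whole gene model include exons that the deletion may have left, so this checks the label in part only.

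Levels of different genes were compared on the authors' nRPKM, which are reads per kilobase scaled to depth with a size factor per sample. In the WT untreated libraries the most abundant member was Vim, an intermediate filament gene that many cell types use, at 484 and 483 nRPKM. Glul, which makes glutamine from glutamate, came next at 115 and 113 nRPKM. It was followed by the matrix proteoglycan Ncan at 85.3 and 87.1 nRPKM and the lipid-binding protein Fabp7 at 75.5 and 73.1 nRPKM. The metallothionein Mt3 at 49.1 and 46.9 nRPKM and the secreted protein Sparcl1 at 47.4 and 48.3 nRPKM overlapped in their ranges. Gfap, the filament protein used to define astrocytes, had 45.6 nRPKM in both libraries. The connexin genes of the gap junction went against the label: Gja1, which an astrocyte set would carry at a high level, had 0.703 and 0.645 nRPKM, and Gjb6 was at 0. The remaining defining genes Slc1a3, Aqp4, Aldoc, S100b and Sox9 were all detected in every library.

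**Figure D1:**
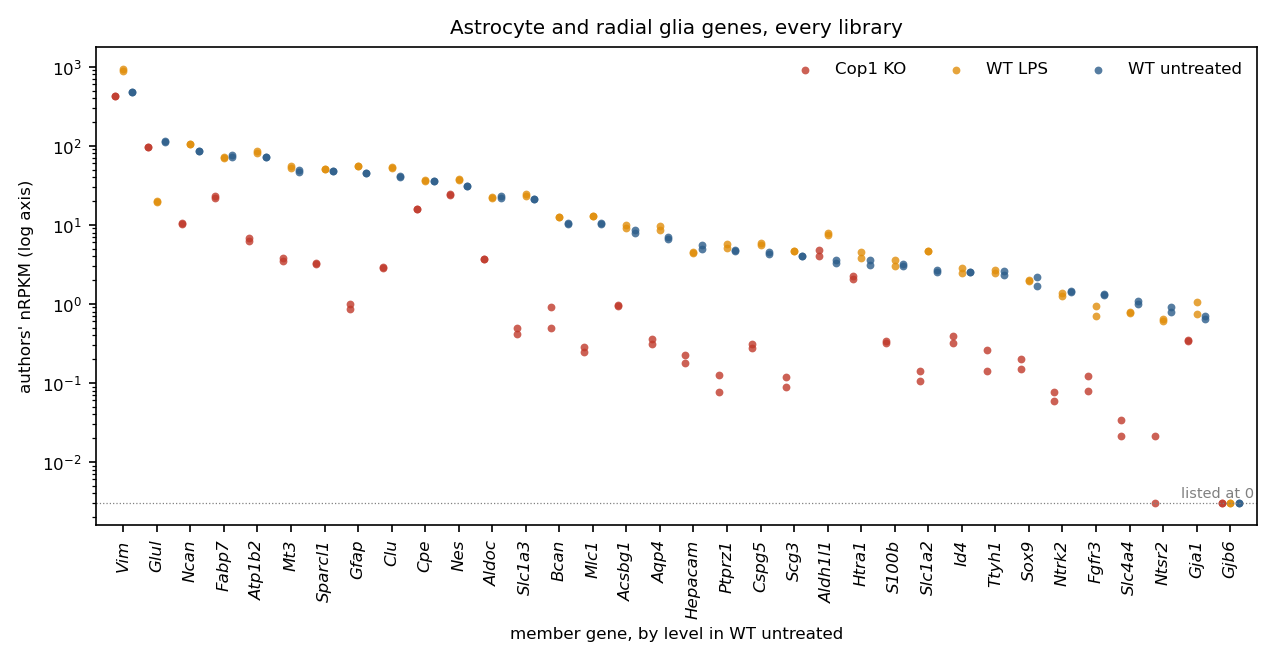
Authors' nRPKM of each member gene (log axis) in every library, in the order of the WT untreated level. Each dot is 1 library, with 2 libraries a group for Cop1 KO, WT LPS and WT untreated; values listed at 0 are drawn on the dotted line. Gfap lies at 0.993 and 0.872 nRPKM in Cop1 KO, against 55.8 and 55.0 nRPKM in WT LPS and 45.6 nRPKM in both WT untreated libraries.

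The DNA just upstream of the starts of these genes was read as a description, and its part in their changes was not tested. RefSeq (GRCm38.p6) gave the 250 bases before the start for 27 of the 34 genes. Gfap and Slc1a3 are shown as members left at about 2% of their WT untreated level in Cop1 KO, and Vim and Glul as members left at more than 70%. Each is written 5′ to 3′ on the strand of its gene, and capitals mark matches, on either strand, to the motifs listed after the sequences.
Gfap, chr11:102897201-102897450, minus strand: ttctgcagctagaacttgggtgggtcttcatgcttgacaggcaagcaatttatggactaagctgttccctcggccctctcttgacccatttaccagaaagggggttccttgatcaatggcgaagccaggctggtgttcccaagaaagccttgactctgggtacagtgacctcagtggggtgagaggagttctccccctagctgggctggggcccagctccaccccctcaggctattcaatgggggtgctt
Slc1a3, chr15:8710808-8711057, minus strand: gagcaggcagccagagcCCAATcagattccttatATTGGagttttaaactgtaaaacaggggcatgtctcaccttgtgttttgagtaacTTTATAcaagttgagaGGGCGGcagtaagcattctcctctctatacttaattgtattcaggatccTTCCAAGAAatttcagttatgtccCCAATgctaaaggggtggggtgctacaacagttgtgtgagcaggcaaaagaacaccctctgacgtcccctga
Vim, chr2:13574061-13574310, plus strand: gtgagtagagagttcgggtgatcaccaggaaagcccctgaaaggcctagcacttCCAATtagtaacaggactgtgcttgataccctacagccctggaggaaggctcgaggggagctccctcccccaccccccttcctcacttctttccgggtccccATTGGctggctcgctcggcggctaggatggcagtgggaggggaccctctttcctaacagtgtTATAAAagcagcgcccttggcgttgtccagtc
Glul, chr1:153899679-153899928, plus strand: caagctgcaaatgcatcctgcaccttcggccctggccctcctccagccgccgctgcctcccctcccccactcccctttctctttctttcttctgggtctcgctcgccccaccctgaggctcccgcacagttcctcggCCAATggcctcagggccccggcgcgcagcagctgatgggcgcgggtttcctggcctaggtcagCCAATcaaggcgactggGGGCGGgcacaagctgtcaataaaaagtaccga
The motifs searched were the TATA box (letters TATAAA), the NF-Y box (letters CCAAT), the GC box (letters GGGCGG), the STAT motif (letters TTCNNNGAA), the AP-1 motif (letters TGANTCA), the SOX motif (letters AACAAT), the C/EBP motif (letters TTGCNNAA) and the palindromic NFI motif. The NF-Y box was found in 13 of 27 member windows (48.1%), against 34.5% of the 27025 windows of all genes. The GC box was likewise found in 13 of 27 (48.1%), against 32.9% of all windows. Median G and C content was 55.6% in the member windows and 52.0% in all, and motif shares were not tested against base content. The C/EBP motif was in 4 (14.8%, against 9.6%), the STAT motif in 3 (11.1%, against 7.2%), the TATA box in 3 (11.1%, against 13%) and the AP-1 motif in 1 (3.7%, against 6.9%). The SOX and NFI motifs were in none of the 27, against 9.6% and 0.0% (11 windows) of all. The Gfap window held no match, Slc1a3 held 6 over 4 motifs, and Vim and Glul held 3 each. Slc1a3, Vim and Glul each held at least 1 NF-Y box. These are matches of letters, not binding sites, and a window without one says only that these letters are not in those 250 bases.

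Cop1 KO microglia were first compared with WT untreated. Astrocyte and radial glia transcripts were far lower in Cop1 KO. Of the 33 genes tested, 32 fell, and Aldh1l1 alone was called higher. Among all 15585 genes tested, 30.3% were called lower and 28.1% higher. The fall was at least 4-fold for 25 of the 33, against 9.91% of all genes. The median log2 fold change of the members was −3.83, beside −0.01 over all genes tested. All 32 genes called lower were so under each of the 13 settings tried.

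Among the filament genes, Gfap had 6.26 and 5.47 CPM in Cop1 KO, against 314 CPM in both WT untreated libraries. The groups lay far apart, at a log2 fold change of −5.74 (SE 0.09, edgeR adjusted p = 5.3e-55). Vim had 1075 and 1061 CPM in Cop1 KO, against 1313 and 1308 CPM in WT untreated, and fell (log2 fold change −0.30, SE 0.03). Nes, the filament gene of neural progenitors, had 201 and 199 CPM in Cop1 KO, against 279 and 277 CPM in WT untreated. Its log2 fold change was −0.48 (SE 0.03), so both Vim and Nes stayed above 70% of the WT untreated level while Gfap was left at 1.87% of it.

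The genes of glutamate handling split in the same manner. Slc1a3, which encodes the glutamate transporter GLAST, had 2.84 and 2.38 CPM in Cop1 KO, against 132 and 131 CPM in WT untreated (log2 fold change −5.65, SE 0.13, edgeR adjusted p = 1.4e-48). Slc1a2, the other main astrocyte glutamate transporter, had 1.89 and 2.52 CPM in Cop1 KO, against 48.1 and 51.0 CPM in WT untreated (−4.49, SE 0.15). Both transporters were thus under 5% of the WT untreated level. Glul, which macrophages also express, had 365 and 357 CPM in Cop1 KO, against 472 and 463 CPM in WT untreated, a log2 fold change of −0.37 (SE 0.03, edgeR adjusted p = 6.7e-15).

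All 6 membrane proteins of water, ion and volume control fell by at least 4-fold. Aqp4, the water channel of astrocyte endfeet, had 2.25 and 2.65 CPM in Cop1 KO, against 53.6 and 56.0 CPM in WT untreated (log2 fold change −4.48, SE 0.15). Mlc1, a membrane protein of astrocyte contacts, fell (−5.42, SE 0.21), as did Hepacam, the adhesion protein that partners it (−4.81, SE 0.25). The sodium bicarbonate cotransporter Slc4a4 (−5.34, SE 0.41) and Ttyh1, of the tweety family of membrane proteins (−3.74, SE 0.22), fell too. Atp1b2, a beta subunit of the sodium pump, was the most abundant of the 6 and the least reduced, at 24.7 and 27.1 CPM in Cop1 KO, against 317 and 314 CPM in WT untreated (−3.61, SE 0.05). The connexin Gja1 had 1.53 and 1.46 CPM in Cop1 KO, against 3.33 and 3.06 CPM in WT untreated, with a log2 fold change of −1.09 (SE 0.24, edgeR adjusted p = 6.5e-05).

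All 4 receptor genes and both transcription regulators fell. Ptprz1, a receptor-type phosphatase of radial glia and astrocytes, had 1.396 and 0.839 CPM in Cop1 KO, against 56.8 and 58.5 CPM in WT untreated (log2 fold change −5.68, SE 0.22). Ntrk2, the receptor of the growth factor BDNF (−4.52, SE 0.17), and the fibroblast growth factor receptor Fgfr3 (−3.83, SE 0.28) fell too. The neurotensin receptor Ntsr2 had 1 count over the Cop1 KO libraries, against 102 over the WT untreated libraries, a ratio 88.0-fold lower with a 95% counting interval of 15.4 to 3508. The glial transcription factor Sox9 (−3.59, SE 0.25) and Id4, an inhibitor of helix-loop-helix factors (−2.95, SE 0.27), were both lower. Levels of these regulators were low, at 1.13 and 0.839 CPM for Sox9 in Cop1 KO, against 10.4 and 13.2 CPM in WT untreated.

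Of the 6 metabolic and small binding proteins, 5 fell and Aldh1l1 was higher. On the log2 scale falls were seen for Mt3 (−3.86, SE 0.14), the calcium-binding protein S100b (−3.37, SE 0.28), the fatty acid activating enzyme Acsbg1 (−3.24, SE 0.12) and the glycolytic enzyme Aldoc (−2.75, SE 0.08). Fabp7, the lipid-binding protein of radial glia, had 22.2 and 23.5 CPM in Cop1 KO, against 85.0 and 82.4 CPM in WT untreated, a smaller change (−1.87, SE 0.06). Aldh1l1, an enzyme of folate metabolism often used to mark astrocytes, had 20.9 and 17.1 CPM in Cop1 KO, against 15.2 and 16.6 CPM in WT untreated. The groups did not overlap, with a log2 fold change of 0.25 (SE 0.09, edgeR adjusted p = 0.015). The call was lost without Cop1 KO library 1 (0.10, edgeR adjusted p = 0.45), without WT untreated library 1 (0.19, adjusted p = 0.17) and on plain library size (0.06, adjusted p = 0.61), the range over all settings being 0.0005 to 0.61. Other annotated entries overlap 13.4% of the exonic bases of Aldh1l1, and an unstranded library does not separate them.

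The 3 proteoglycan genes of the brain matrix fell together. Ncan had 101 and 102 CPM in Cop1 KO, against 907 and 925 CPM in WT untreated (log2 fold change −3.17, SE 0.03, edgeR adjusted p = 2.3e-54). Bcan (−4.03, SE 0.13) and Cspg5 (−4.04, SE 0.18) fell as well. The secreted proteins were less uniform. Clu, an extracellular chaperone, had 8.10 and 8.26 CPM in Cop1 KO, against 128 and 127 CPM in WT untreated (−3.96, SE 0.08), and Sparcl1 fell too (−4.02, SE 0.06). The secretory granule protein Scg3 was among the most reduced (−5.40, SE 0.39). Cpe, a peptidase that processes prohormones (−1.29, SE 0.05), and the secreted protease Htra1 (−0.76, SE 0.13) fell less.

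Sorted by what was left, 11 members stood below 5% of the WT untreated level in Cop1 KO and 14 between 5 and 15%. Gja1, Fabp7, Cpe and Htra1 lay between 15 and 60%, and Vim, Nes, Glul and Aldh1l1 lay above 60%. Vim, Nes and Glul together made up 84.9% of the summed CPM of the members in each Cop1 KO library, 47.1 and 45.5% in WT LPS, and 42.0 and 41.7% in WT untreated. These 3 were picked out after their values were seen. The other 31 genes summed to 292 and 288 CPM in Cop1 KO, 2989 and 3013 CPM in WT LPS, and 2848 and 2865 CPM in WT untreated. Ratios within a library do not depend on how libraries are scaled. The nRPKM of Gfap over that of Slc1a3 was 1.99 and 2.07 in Cop1 KO, 2.41 and 2.27 in WT LPS, and 2.15 and 2.17 in WT untreated. The nRPKM of Fabp7 over that of Gfap was 21.7 and 26.3 in Cop1 KO, 1.29 and 1.28 in WT LPS, and 1.66 and 1.60 in WT untreated.

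**Figure D2:**
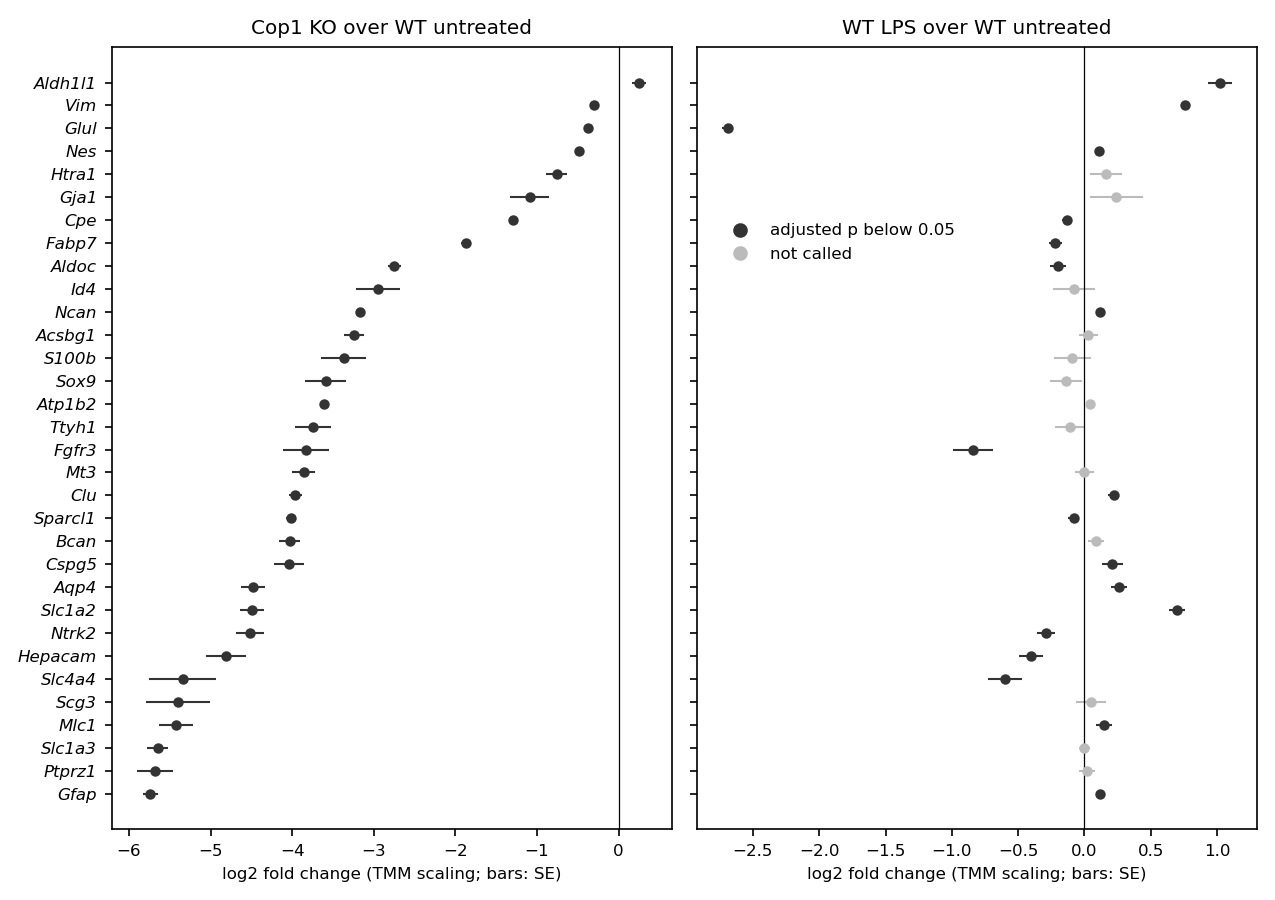
Log2 fold change (TMM scaling) of each member gene in Cop1 KO over WT untreated (left) and in WT LPS over WT untreated (right), ordered by the left panel. Points are edgeR estimates from 2 libraries a group, bars are SE, and dark points have an adjusted p below 0.05; Ntsr2 and Gjb6 are left out for their low counts. Both panels share the WT untreated libraries: Cop1 KO values run down to −5.74 for Gfap, while with LPS most points lie near 0, where their sign depends on the scaling.

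The second comparison set WT LPS microglia against WT untreated. Most astrocyte and radial glia genes stayed close to their WT untreated level, and Glul, Aldh1l1, Fgfr3, Vim and Slc1a2 stood furthest from it. Of the 33 genes tested, 10 were called higher and 9 lower, beside 30.2% higher and 43.4% lower among all genes. The median log2 fold change of the members was 0.02, and that of all genes −0.18. Directions of small changes depended on how libraries were scaled, since TMM factors were 0.806 in both WT LPS libraries, against 1.192 and 1.190 in WT untreated. With median-of-ratios factors, 16 members were higher and 5 lower and the median of all genes was −0.04. On plain library size, 3 were higher and 29 lower and the median of all genes was −0.74. Relative to the median of all genes the members' median lay 0.20 higher under each of these 3 scalings, with 25 of the 33 above it. Scaling shifts all genes by nearly the same amount, so this agreement over the 3 scalings was fixed in advance. Vim, Slc1a2 and Aldh1l1 were called higher, and Glul and Fgfr3 lower, under all 13 settings tried.

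Glul had 71.6 and 73.6 CPM in WT LPS, against 472 and 463 CPM in WT untreated. It stood at 15.5% of the WT untreated level, a log2 fold change of −2.69 (SE 0.04, edgeR adjusted p = 5.7e-50) and the only one of the 33 lower by at least 4-fold, beside 5.7% of all genes. Fgfr3 had 6.76 and 4.95 CPM in WT LPS, against 10.4 and 10.7 CPM in WT untreated (−0.84, SE 0.15, edgeR adjusted p = 8.2e-07). An entry on the opposite strand overlaps 13.9% of the exonic bases of Fgfr3, and these libraries do not separate the strands. Aldh1l1 had 31.5 and 33.1 CPM in WT LPS, against 15.2 and 16.6 CPM in WT untreated, which is 2.02-fold higher (1.02, SE 0.09, edgeR adjusted p = 1.3e-15). Relative to the median of all genes, these values were −2.51 for Glul, −0.66 for Fgfr3 and 1.20 for Aldh1l1.

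Vim had 2291 and 2143 CPM in WT LPS, against 1313 and 1308 CPM in WT untreated (log2 fold change 0.76, SE 0.03, edgeR adjusted p = 1.6e-30). The other filament genes moved little, with Gfap at 343 and 338 CPM in WT LPS, against 314 CPM in both WT untreated libraries. Its log2 fold change of 0.12 (SE 0.03, edgeR adjusted p = 0.0019) became −0.45 on plain library size, and so did the 0.11 of Nes. Slc1a2 had 79.8 and 81.3 CPM in WT LPS, against 48.1 and 51.0 CPM in WT untreated (0.70, SE 0.06, edgeR adjusted p = 9.6e-16). Slc1a3 had 129 and 135 CPM in WT LPS, against 132 and 131 CPM in WT untreated, and the groups overlapped. The nRPKM of Slc1a2 over that of Slc1a3 was 0.200 and 0.195 in WT LPS, against 0.117 and 0.126 in WT untreated. With 2 libraries a group the smallest 2-sided permutation p for such a ratio is above 0.05, so no test was made of it.

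Of the membrane proteins, Aqp4 (0.26, SE 0.06) and Mlc1 (0.15, SE 0.06) were called higher with LPS, and on plain library size both turned negative (−0.30 and −0.42). Hepacam (−0.40, SE 0.09) and Slc4a4 (−0.60, SE 0.13) were called lower, with edgeR adjusted p = 8.3e-05 and 3.2e-05. Ntrk2 (−0.29, SE 0.07), Fabp7 (−0.22, SE 0.05), Aldoc (−0.20, SE 0.06), Cpe (−0.13, SE 0.04) and Sparcl1 (−0.08, SE 0.04) completed the genes called lower. Cpe and Sparcl1 turned positive under median-of-ratios factors, at 0.01 and 0.06. Clu (0.22, SE 0.04), Cspg5 (0.21, SE 0.08) and Ncan (0.12, SE 0.03) completed the genes called higher, and each turned negative on plain library size, at −0.35, −0.35 and −0.44. The 14 genes with no call ran from −0.59 (Ntsr2) to 0.24 (Gja1) on the log2 scale.

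**Figure D3:**
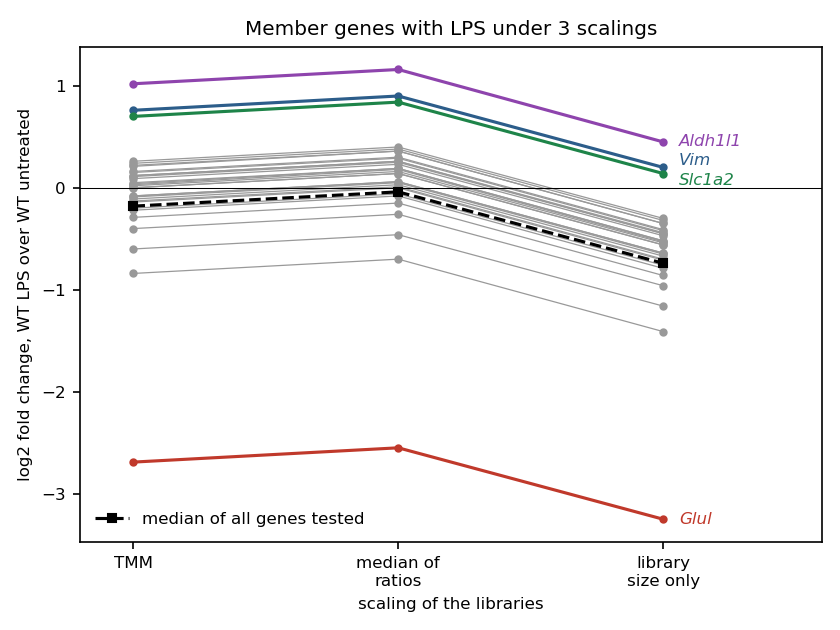
Log2 fold change of the member genes in WT LPS over WT untreated under 3 scalings of the libraries. Each line is 1 gene from the edgeR fit with 2 libraries a group, named genes are coloured, and the dashed line is the median of all genes tested; Ntsr2 and Gjb6 are left out. Genes move in parallel with the median of all genes (−0.18, −0.04 and −0.74), so Aldh1l1, Vim and Slc1a2 stay above 0 and Glul far below it, while most others change sign.

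Set directly against each other, Cop1 KO was lower than WT LPS for 32 of the 33 genes, and 25 of them by at least 4-fold. Over all genes, 39.6% were called lower and 39.9% higher, and 15.6% were lower by at least 4-fold. The median log2 fold change of the members was −3.65, beside 0.03 over all genes. Glul alone was higher, at 365 and 357 CPM in Cop1 KO, against 71.6 and 73.6 CPM in WT LPS (2.32, SE 0.04, edgeR adjusted p = 1.4e-46). Aldh1l1, called higher than WT untreated in both groups, was lower in Cop1 KO than in WT LPS (−0.77, SE 0.09, edgeR adjusted p = 1.3e-11). Gfap differed by −5.86 (SE 0.09) and Vim by −1.05 (SE 0.03).

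Further genes of the same cell types, none of them members, were read beside the set. These lists too were chosen with earlier results of these data known, so they are not an independent check. Of 40 other astrocyte genes, 33 were tested, and 29 were lower and 2 higher in Cop1 KO than in WT untreated, with a median of −2.72. The receptor gene Gpr37l1 (−3.99, SE 0.28) and Tril (−3.95, SE 0.18) were among those that fell. The 2 called higher were Mfge8 (0.61, SE 0.03), an opsonin that macrophages also make, and the lipase Pla2g7 (0.28, SE 0.04). All 25 radial glia and neural stem cell genes found were tested, of which 22 were lower and 1 higher, with a median of −3.33 when Prom1, at 0 counts in Cop1 KO, is set to a floor of 3 counts. The transcription factors Sox21 (−5.20, SE 0.48) and Sox2 (−4.72, SE 0.23) were among the lower genes, and the Notch modifier Lfng (0.68, SE 0.06) was the higher one. With LPS, 5 of the other astrocyte genes were higher and 16 lower (median −0.39). Of the radial glia genes, 6 were higher and 10 lower (median −0.04). Among all genes tested, 30.2% were higher and 43.4% lower with LPS, and 28.1% higher and 30.3% lower in Cop1 KO. The choice of scaling can shift both list medians by more than their size. With LPS the median of all genes was −0.18 with TMM and −0.74 on plain library size. The largest rise with LPS among the radial glia genes was that of the homeobox gene Lhx2 (5.34, SE 0.13).

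Genes that astrocytes induce on injury or inflammation were mostly higher with LPS. Many of them are also induced in macrophages, so they do not mark the cell type here. Of the pan-reactive genes 10 of 11 were higher in WT LPS, of the neuroinflammatory genes 8 of 12, and of the injury genes 8 of 11, with medians of 2.58, 2.73 and 1.87. The chemokine Cxcl10 rose by 10.48 on the log2 scale (SE 0.08) and the iron-carrier binding protein Lcn2 by 5.42 (SE 0.16). In Cop1 KO these lists gave 3 higher and 4 lower, 9 higher and 1 lower, and 2 higher and 6 lower, with medians of −0.12, 0.73 and −0.62. Serpina3n, a protease inhibitor of reactive astrocytes, had 5.94 and 6.05 CPM in Cop1 KO, 273 and 272 CPM in WT LPS, and 161 and 158 CPM in WT untreated. It was lower in Cop1 KO than in WT untreated (−4.73, SE 0.09) and higher with LPS (0.78, SE 0.04). The metalloreductase gene Steap4 had 0 counts in Cop1 KO, 833 in WT LPS and 80 in WT untreated, which puts Cop1 KO at least 23-fold below WT untreated against a floor of 3 counts over the group.

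Markers of other cell types differed between the groups as well, in both directions. Summed microglia markers stood at 19125 and 18970 CPM in Cop1 KO, 11160 and 10847 CPM in WT LPS, and 12711 and 12676 CPM in WT untreated. On nRPKM, which are per kilobase, the WT LPS sums (6051 and 5787) lay above those of WT untreated (5756 and 5723). Of 19 markers tested, 15 were higher and 1 lower in Cop1 KO, and 7 higher and 10 lower with LPS. In Cop1 KO the lower 1 was P2ry13 (−0.49, SE 0.13). P2ry12 (0.14, SE 0.13), Tmem119 (0.14, SE 0.13) and Gpr34 (−0.06, SE 0.07) were not called there. Among all genes tested, 28.1% were higher and 30.3% lower in Cop1 KO, and 30.2% higher and 43.4% lower with LPS. Siglech, not tested, was at 0 counts in both Cop1 KO and WT LPS and at only 0.0794 and 0 CPM in WT untreated. All 10 neuron markers tested were lower in Cop1 KO, and the list of 13 summed to 3.83 and 4.81 CPM in Cop1 KO, 60.8 and 64.1 CPM in WT LPS, and 64.5 and 65.1 CPM in WT untreated. Nefl and Gad2 had 0 counts in Cop1 KO, against 10 and 50 over the WT untreated libraries, and Slc17a6 had 0 in every group. Of the oligodendrocyte lineage markers, 7 of 11 tested were lower and 2 higher in Cop1 KO. Mog was at 0 counts there, against only 5 over the WT untreated libraries. The list summed to 206 and 203 CPM in Cop1 KO, 393 and 376 CPM in WT LPS, and 300 and 294 CPM in WT untreated. With LPS, however, 5 of the 11 were lower and 2 higher (median −0.18). Cnp stood at 229 and 220 CPM in WT LPS, against 59.4 and 59.0 CPM in WT untreated. Mbp went the other way, at 17.6 and 14.6 CPM in WT LPS, against 63.8 and 61.7 CPM in WT untreated. On plain library size the oligodendrocyte sum in WT LPS, at 317 and 303 CPM, lay below that in WT untreated, at 357 and 350 CPM. The early lineage genes Pdgfra (−5.03, SE 0.34), Olig2 (−4.08, SE 0.18) and Olig1 (−3.86, SE 0.10) were lower in Cop1 KO. Mbp stood higher there, at 89.0 and 92.8 CPM, than in WT untreated. So did Cnp, at 73.5 and 69.35 CPM in Cop1 KO.

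Of 8 fibroblast and meningeal markers tested, 5 were higher and 2 lower in Cop1 KO than in WT untreated, and 5 higher and 0 lower with LPS. They summed to 152 and 145 CPM in Cop1 KO, 185 and 180 CPM in WT LPS, and 95.8 and 92.7 CPM in WT untreated. On plain library size the Cop1 KO sums, at 158 and 151.5 CPM, lay above those of WT LPS, at 149 and 145 CPM. Of 6 endothelial and mural markers tested, 4 were higher and 1 lower in Cop1 KO than in WT untreated, and 4 higher and 2 lower with LPS. They summed to 184 CPM in both Cop1 KO libraries, 209 and 206 CPM in WT LPS, and 164 and 165 CPM in WT untreated. On plain library size the order of these endothelial sums turned, at 191 and 192 CPM in Cop1 KO, 168 and 166 CPM in WT LPS, and 196 CPM in both WT untreated libraries. Cldn5 was at 0 counts in every group. Of 3 ependymal markers tested, 1 was lower in Cop1 KO than in WT untreated. The list summed to 5.69 to 6.57 CPM in Cop1 KO, 5.61 to 5.65 CPM in WT LPS, and 7.16 to 7.30 CPM in WT untreated, with Ccdc153, Pifo and Dynlrb2 at 0 counts throughout. The part of these cell types in the member genes' results was not tested.

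**Figure D4:**
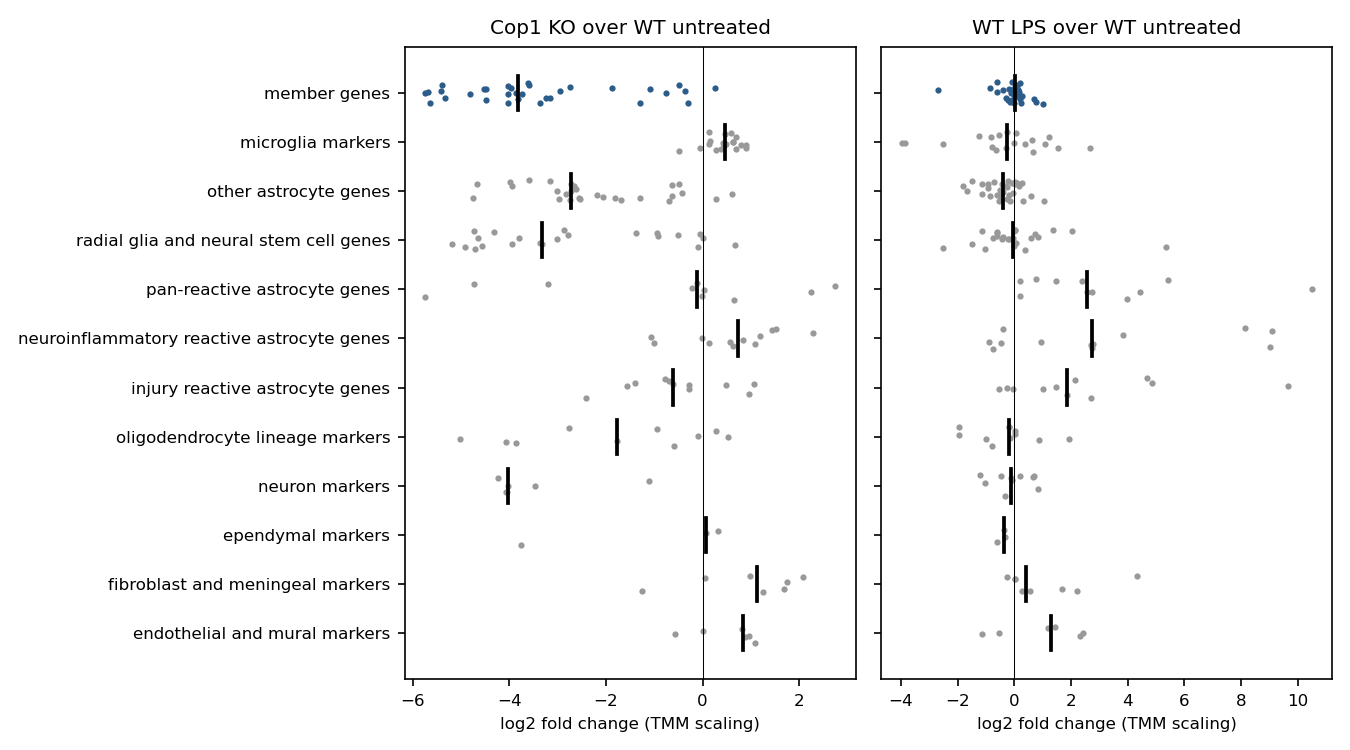
Log2 fold change (TMM scaling) of the tested genes of each list in Cop1 KO over WT untreated (left) and in WT LPS over WT untreated (right). Each dot is 1 gene from 2 libraries a group, member genes are blue, and bars are list medians with genes at 0 counts set to the floor; genes with 3 or fewer counts in a group are not drawn. In Cop1 KO the medians furthest left of 0 are those of neuron markers (−4.04), member genes (−3.83) and radial glia genes (−3.33). Other astrocyte genes (−2.72) and oligodendrocyte lineage markers (−1.77) follow. With LPS the reactive astrocyte lists lie to the right and the members sit at a median of 0.02, whose sign changes with the scaling.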

How the data were processed

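Column-purified, DNase-treated RNA went into unstranded TruSeq libraries read single-end, per the labels' protocols. Reads were aligned with GSNAP to GRCm38, per the submitters' processing notes (version and annotation: not given in the sources used here). Counts in the deposited files are reads that aligned uniquely to a gene model, as the headers state. The deposited nRPKM are RPKM multiplied by a sample size factor, as the headers state.

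Of 36528 identifiers, 31049 took names from RefSeq, 78 from GENCODE and 5401 had none; counts without a name were 1.072 to 1.304% of a library. The members and gene lists were chosen with earlier results of these data known, and 207 of 208 list symbols were found. All 6 libraries entered a single edgeR 4.0.16 quasi-likelihood fit (R 4.3.3, TMM factors, filterByExpr, 15585 genes, 3 residual degrees of freedom), with Benjamini-Hochberg adjustment over all genes and calls below 0.05. Alternatives were median-of-ratios factors, plain library size, no filter, DESeq2 1.42.0, only the groups compared, limma 3.58.1 on log2 of nRPKM plus 1, and leaving out each library. All members are named; from other lists, genes are the largest called changes above a group mean of 5 CPM, and others were chosen after their values were seen; some genes that this rule picks are not reported here. Ratios with 1 to 3 counts have 95% intervals, and genes at 0 use a floor of 3 counts over the group; both cover counting error only. The fit was tried on simulated data with 200 genes changed. Far more genes were called in the real data, so that trial does not bear on the choice of scaling. Libraries of a group varied beyond sampling noise (chi-square over its degrees of freedom 1.995 in Cop1 KO, 2.568 in WT LPS and 1.598 in WT untreated).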

Additional observations from a re-analysis of the deposited data

How the results depend on the processing

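In Cop1 KO against WT untreated, the 32 members called lower were so in every setting. Plain library size gave 0 members higher and a median of −4.02, and limma on log2 nRPKM plus 1, which shrinks low genes, a median of −1.70. Leaving out each library gave 0 to 1 higher, 32 lower, 32 to 33 called and medians of −3.94 to −3.64. In Cop1 KO against WT LPS, all member calls held; medians were −3.28 on library size, −2.18 in limma and −3.79 to −3.65 without each library.

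In WT LPS against WT untreated, members were 16 higher and 5 lower (median 0.16) with median-of-ratios factors and with limma, 3 higher and 29 lower, 32 in all (median −0.54), on library size, 17 and 5 (0.17) with only the groups compared, and 11 higher and 2 lower (median 0.16) in DESeq2. Leaving out each library gave 15 to 19 called, 8 to 10 higher, 7 to 9 lower and medians of 0.00 to 0.03. Of all calls, 41.1% were higher with TMM, 49.6% with median-of-ratios factors, 19.9% on library size and 50.9% in limma; for Cop1 KO against WT untreated these were 48.1%, 58.4%, 24.4% and 63.6%, with all-gene medians of −0.01, 0.08, −0.20 and 0.07. Summed member levels were 2000 CPM in Cop1 KO, 4504 in WT LPS and 5850 in WT untreated on library size, and 5850 in WT LPS and 4660 in WT untreated with median-of-ratios factors.

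Members whose LPS direction reversed on library size were Gfap (−0.45), Nes (−0.45), Slc1a3 (−0.56), Aqp4 (−0.30), Mlc1 (−0.42), Atp1b2 (−0.52), Gja1 (−0.32), Ptprz1 (−0.54), Acsbg1 (−0.53), Mt3 (−0.56), Bcan (−0.47), Ncan (−0.44), Cspg5 (−0.35), Clu (−0.35), Htra1 (−0.41) and Scg3 (−0.52), with the meningeal gene Igfbp2 (−0.27). Without the filter they were Slc1a3 (−0.02), Ptprz1 (0.00) and Mt3 (−0.02). With median-of-ratios factors, DESeq2, only the groups compared and limma they were Ttyh1 (0.03, 0.02, 0.03, 0.04), Id4 (0.06, 0.05, 0.06, 0.06), S100b (0.05, 0.04, 0.05, 0.05), Sparcl1 (0.06, 0.05, 0.07, 0.08) and Cpe (0.01, 0.00, 0.01, 0.03), and Sox9 in limma (0.02). Leaving out libraries gave Acsbg1 −0.02 to 0.09, Gja1 0.00 to 0.46, Id4 −0.20 to 0.02, Mt3 −0.06 to 0.06, Ptprz1 −0.07 to 0.11, S100b −0.22 to 0.03, Slc1a3 −0.03 to 0.03 and Sox9 −0.30 to 0.04. Beyond the scaling itself, the cause was not tested. No paired analysis was possible because the labels carry no replicate numbers. Depth limits Ntsr2, Slc4a4, Scg3, Fgfr3, Id4 and S100b, which held few counts in Cop1 KO.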
